A study of Homo sapiens with 18 samples.

Results

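The TRIM family of MOLM-13 cells, an acute monocytic leukaemia line, was described at the RNA level apart from its members TRIM24, TRIM28 and TRIM33. Members were the rows of the expression table named TRIM followed by a digit, with no hyphen in the name, 72 of 23713 rows in all. Of these 72 genes, 34 reached 1 FPKM in at least 1 group (FPKM, sequenced fragments per kilobase of transcript, scaled between libraries) and 38 did not. After 92 rows of control RNAs added to the samples and 1707 small RNA rows were left out of the 23713, 11054 genes reached that level. The cells had been given dTRIM24, IACS-9571 or DMSO, the solvent, for 24 h or 4 h, with 3 samples in each of the 6 groups and 1 mean per gene and group in the table. IACS-9571 is a ligand of the bromodomains of TRIM24 and BRPF1, and dTRIM24 links such a ligand to one of the VHL ubiquitin ligase so that TRIM24 protein is degraded. The labels name no dose, so the compounds were compared at matched times and unknown doses. Values of single samples were not analysed here. The values below thus carry no error from replicates, the differences could not be tested, and the depth behind them is unknown.

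TRIM proteins share a tripartite motif, a RING finger followed by B-box zinc fingers and a coiled coil, and most act as ubiquitin ligases through the RING. The part after the coiled coil differs and sorts the family into classes. Many members with a PRY-SPRY domain are induced by interferon and act in antiviral defence, others bind microtubules, membranes or RNA. TRIM24, the target of both compounds, belongs to the class with a PHD finger and a bromodomain, whose remaining member here is TRIM66.

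The label of the line was checked first. All 12 myeloid markers were in the table, 10 of them with at least 5 FPKM in each group. The others were MPO, at 3.55 to 8.63 FPKM, and CSF1R, at 0.853 to 1.22 FPKM. The 7 markers of other cells stayed under 1 FPKM in every group. These lists mark myeloid cells and cannot identify the line. The 25 ERCC spike-ins (RNAs added to each sample) with at least 5 FPKM in each group gave a scale for differences between 2 group means. The SD of their differences of log2(FPKM + 1) lay between 0.11 and 0.22 in the 9 comparisons. It is the spread of single RNAs between means and does not stand for a replicate error.

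TRIM genes were expressed at modest levels. The 34 that reached 1 FPKM had a median percentile of 34.0 among the 11054 genes kept at that bound, ranked by the mean of the 6 group means. Of them, 22 reached 5 FPKM, 14 reached 10 FPKM and 7 reached 20 FPKM. The shares of all kept genes at these higher levels are not given here. In 32 of the 34 every group mean was at least 1 FPKM, and the exceptions were TRIM62 and TRIM52.

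TRIM27, a RING protein that represses transcription and was found as a fusion partner of RET, was far above the others per transcript length. It had 77.7 FPKM with dTRIM24, 63.8 FPKM with IACS-9571 and 61.8 FPKM in DMSO at 24 h. At 4 h it had 77.4 FPKM with dTRIM24, 80.2 FPKM with IACS-9571 and 81.7 FPKM in DMSO. The DMSO and IACS-9571 means at 24 h were thus the low ones, and the other 4 lay close together.

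TRIM25, a ligase of the RNA sensor RIG-I, was second by the mean of the groups. It had 25.6 FPKM with dTRIM24, 19.96 FPKM with IACS-9571 and 20.5 FPKM in DMSO at 24 h, and 23.7 FPKM, 25.8 FPKM and 26.9 FPKM in the same order at 4 h. TRIM44, a member without a RING finger, had 24.7 FPKM with dTRIM24, 21.1 FPKM with IACS-9571 and 21.3 FPKM in DMSO at 24 h, and 24.6 FPKM, 24.1 FPKM and 23.9 FPKM in that order at 4 h. Both were low in the same pair of groups as TRIM27. TRIM22, described with the interferon-inducible genes, came next.

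TRIM59, a membrane protein of the endoplasmic reticulum, followed TRIM22. It had 19.4 FPKM with dTRIM24, 16.6 FPKM with IACS-9571 and 18.04 FPKM in DMSO at 24 h, and 20.8 FPKM, 19.1 FPKM and 18.7 FPKM in that order at 4 h. Its level is uncertain, because 1561 bases of its exons (19.8% of them) lie opposite exons of SMC4, which had 122 to 152 FPKM, and no source used here gives the strand handling. The exons of TRIM13 (346 bases, opposite DLEU2), TRIM39 (517 bases, opposite HCG18) and TRIM25 (80 bases, opposite DGKE) overlap in the same way with genes of 10.6 FPKM or less. TRIM13 also shares 1086 exon bases (13.4%) with KCNRG on the same strand, at 0.543 to 0.782 FPKM. Overlaps of TRIM14 and TRIM37 with genes at 1 FPKM or more are given further below. Other overlapping genes with an expression row stayed under 1 FPKM. The remaining overlaps are with genes that have no expression row, so their level is unknown. The largest of those without a row cover 1868 exon bases of TRIM52 (28.5%), 1349 of TRIM8 (14.1%) and 1327 of TRIM16 (23.5%). TRIM13, the other member of the transmembrane class, also works at the endoplasmic reticulum. It ranged over the 6 groups between 17.2 FPKM and 20.1 FPKM, and TRIM65, a ligase of the RNA sensor MDA5, between 15.5 FPKM and 21.1 FPKM. By the mean of the groups, neighbours in this order from TRIM22 to TRIM21 differed by less than each varied over the groups.

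**Figure D1:**
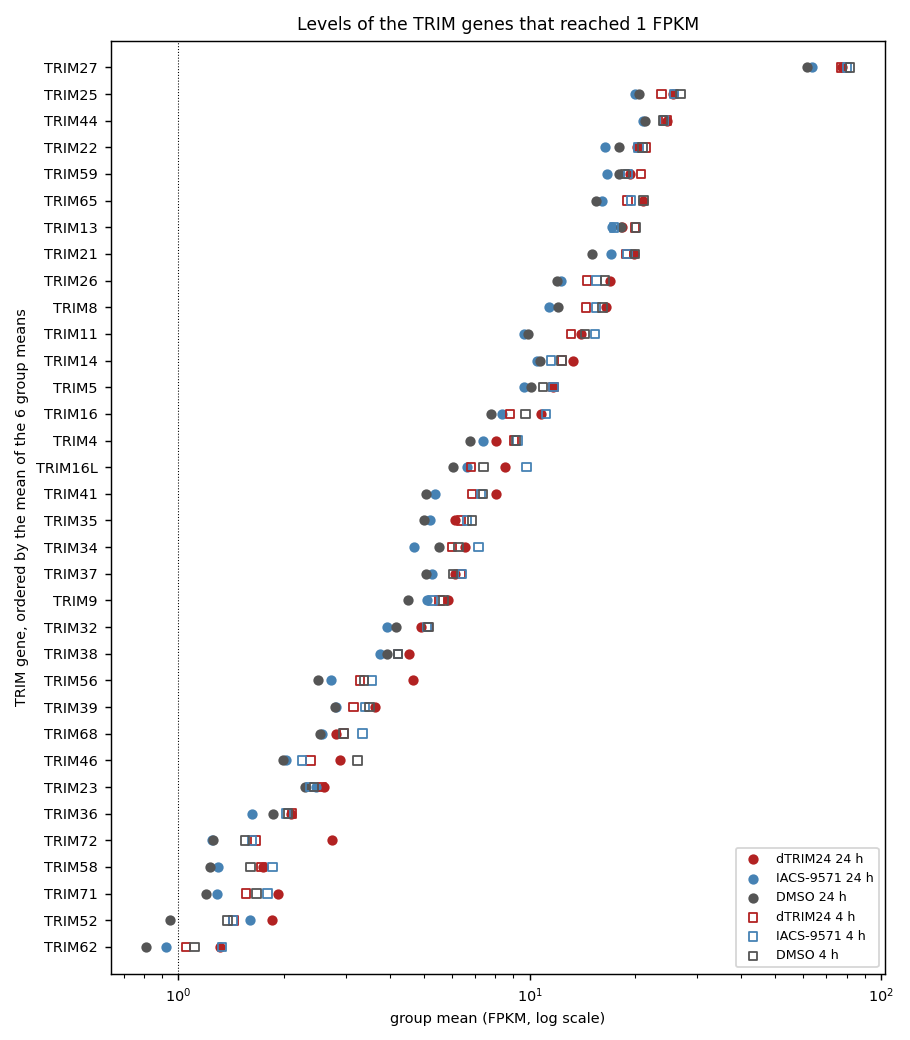
Group means (FPKM, log axis) of the 34 TRIM genes that reached 1 FPKM, ordered down the page from the highest to the lowest mean; filled circles are the 24 h groups and open squares the 4 h groups, coloured by compound, and the dotted line marks 1 FPKM. TRIM27 stands apart between 61.8 FPKM and 81.7 FPKM, and for most genes the filled grey and blue circles (DMSO and IACS-9571 at 24 h) lie to the left of the other symbols.

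Next to the bound of 1 FPKM, TRIM62 was the lowest gene kept, with a highest group mean of 1.33 FPKM, and TRIM66 the highest left out. TRIM66, the remaining relative of TRIM24 with a PHD finger and a bromodomain, had 0.886 FPKM with dTRIM24, 0.577 FPKM with IACS-9571 and 0.531 FPKM in DMSO at 24 h. At 4 h it had 0.670 FPKM, 0.714 FPKM and 0.563 FPKM in that order. TRIM7 (0.292 to 0.580 FPKM) and TRIM45 (0.259 to 0.540 FPKM) were the other genes between 0.5 FPKM and 1 FPKM. The remaining 35 members stayed under 0.5 FPKM. Among these, 21 sat in all 6 columns at the most frequent value of the column, which 6066 rows share and which lies between 0.0914 FPKM and 0.105 FPKM depending on the column. Differences between columns in these genes are those of that shared value. They include the near-identical copies TRIM43 and TRIM43B, TRIM49, TRIM49B and TRIM49C, and TRIM64, TRIM64B and TRIM64C. The other 14 lay between 0.0910 FPKM (TRIM55) and 0.306 FPKM (TRIM2), in some columns under that value.

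Kept members varied little over the groups. The ratio of the highest to the lowest group mean had a median of 1.36 over the 34 genes, against 1.35 over all 11054 kept genes, and ran from 1.13 for TRIM23 to 2.20 for TRIM72. TRIM23, a ligase with an ARF GTPase domain, lay between 2.30 FPKM and 2.60 FPKM in all groups.

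At 4 h no TRIM gene passed a 2-fold difference from DMSO with either compound. With dTRIM24 against DMSO, 0 of the 34 genes passed a 2-fold difference (a difference of 1 on the log2(FPKM + 1) scale), where 0.688% of all kept genes did. The median of the members was -0.03 and that of all kept genes -0.01. With IACS-9571 against DMSO 0 of 34 passed it too, beside 0.289% of all genes, with a median of -0.01 for the members and 0.00 for all genes. Members above DMSO numbered 12 with dTRIM24 and 16 with IACS-9571, where 47.8% and 50.1% of all kept genes lay above. These splits depend on the scaling. Rescaling the groups to the spike-ins moves all genes of a group together, and it put the median of the members at -0.04 with dTRIM24 and -0.08 with IACS-9571. The share of all genes above DMSO was not computed under that rescaling.

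With dTRIM24 at 4 h the members lay between -0.33 for TRIM46 and 0.15 for TRIM59 on the log2(FPKM + 1) scale. Of the 34, 1 lay beyond the spike-in SD of 0.21, where 18.6% of all genes did. With IACS-9571 at 4 h, where the spike-in SD was 0.11, 9 of the 34 lay beyond it, beside 31.5% of all genes. The gene beyond it with dTRIM24 was TRIM46, a microtubule organiser of the axon initial segment, named here after its values were seen. It had 2.38 FPKM with dTRIM24 and 2.25 FPKM with IACS-9571 at 4 h, against 3.24 FPKM in DMSO. One DMSO mean serves both comparisons, so their low values share it. TRIM46 also had the highest transcript GC content of the kept members, 62.6%, and once the trend on GC content was removed the difference was -0.17 with dTRIM24 and -0.32 with IACS-9571. Among members with at least 5 FPKM, dTRIM24 stood furthest from DMSO at 4 h for TRIM25 (-0.17), TRIM26 (-0.16) and TRIM59 (0.15).

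With IACS-9571 at 4 h the highest member was TRIM16L, at 9.81 FPKM against 7.39 FPKM in DMSO, a difference of 0.37. Its longer copy TRIM16, a protein without a RING finger that acts in autophagy of damaged membranes, had 11.2 FPKM with IACS-9571 against 9.75 FPKM in DMSO. With dTRIM24 the same genes had 6.81 FPKM and 8.80 FPKM, just under DMSO. At 24 h TRIM16L had 8.51 FPKM with dTRIM24, 6.62 FPKM with IACS-9571 and 6.04 FPKM in DMSO. TRIM16 had 10.8 FPKM, 8.37 FPKM and 7.75 FPKM in that order at 24 h. The difference of TRIM16L from DMSO with IACS-9571 was 0.11 at 24 h. With dTRIM24 at 24 h both genes stood at 0.43, where all kept genes had a median of 0.26. TRIM16 and TRIM16L are near-identical over part of their length, so reads may have been divided between them and their separate values are uncertain. TRIM13 was the gene furthest below DMSO among those with at least 5 FPKM, at 17.4 FPKM with IACS-9571 against 20.1 FPKM in DMSO, and it had 19.9 FPKM with dTRIM24. At 24 h TRIM13 had 18.4 FPKM with dTRIM24, 17.2 FPKM with IACS-9571 and 18.2 FPKM in DMSO.

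Set directly against IACS-9571 at 4 h, dTRIM24 gave 0 of 34 members past 2-fold, beside 0.597% of all kept genes, and a median of -0.03 against -0.02 for all genes. TRIM16L was the lowest, with a difference of -0.47, and TRIM16 stood at -0.31, TRIM34 at -0.22 and TRIM13 at 0.19. TRIM16L and TRIM16 were the members beyond the spike-in SD of 0.22 in this comparison, 2 of 34 beside 6.52% of all genes. With the trend on GC content taken out they stood at -0.44 and -0.27, so both values were about as large.

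After 24 h every TRIM gene kept lay above DMSO with dTRIM24, as most genes did. The 34 members ran from 0.01 for TRIM13 to 0.73 for TRIM72 with a median of 0.30, and over all kept genes the median was 0.26 and 96.8% lay above DMSO. Past 2-fold were 0 of 34 members, beside 0.199% of all genes, and past 1.5-fold 2 of 34 members, beside 4.98% of all genes. Over all genes the shift is thus of nearly the same size as over the family, and with each group centred on its median 19 members lay above and 15 below DMSO. The spike-ins had a median difference of -0.06 in this comparison. With the groups rescaled to the spike-ins the median of the members was 0.35. In bulk RNA, fewer cells with a transcript and less of it per cell cannot be told apart.

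On the log2(FPKM + 1) scale the members past 1.5-fold were TRIM72 and TRIM56. That scale understates low genes, and ratios of the FPKM values themselves are larger, so further low members can pass 1.5-fold on them. TRIM72, known for sealing damaged membranes in muscle, had 2.74 FPKM with dTRIM24 at 24 h, against 1.25 FPKM with IACS-9571 and 1.26 FPKM in DMSO, and between 1.55 FPKM and 1.66 FPKM in the 4 h groups. It was named after its values were seen, since it lies under 5 FPKM. TRIM56, a ligase without a C-terminal domain that acts on the STING pathway of DNA sensing, had 4.67 FPKM with dTRIM24, 2.72 FPKM with IACS-9571 and 2.498 FPKM in DMSO at 24 h. At 4 h TRIM56 had 3.29 FPKM, 3.56 FPKM and 3.37 FPKM in that order. For both genes the dTRIM24 mean at 24 h was above the other 5 groups. That group was also the highest for 13 of the 34 kept members in all, and for 34.5% of all kept genes. Relative to the median of all kept genes the differences from DMSO at 24 h were 0.47 for TRIM72 and 0.44 for TRIM56. After removal of the GC trend they were 0.41 and 0.38. With a pseudocount of 0.1, which weighs low levels more, TRIM72 stood at 1.07 and passed 2-fold.

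Among members with at least 5 FPKM the differences of dTRIM24 from DMSO at 24 h were highest for TRIM41, TRIM26 and TRIM11. TRIM41, a RING ligase of protein kinase C, had 8.03 FPKM with dTRIM24, 5.39 FPKM with IACS-9571 and 5.08 FPKM in DMSO at 24 h, and 6.86 FPKM, 7.27 FPKM and 7.36 FPKM in that order at 4 h. TRIM11, a ligase of protein quality control, had 14.01 FPKM, 9.65 FPKM and 9.93 FPKM in that order at 24 h, and 13.1 FPKM, 15.4 FPKM and 14.4 FPKM at 4 h. For both, DMSO and IACS-9571 at 24 h were the low groups, and dTRIM24 at 24 h lay above dTRIM24 at 4 h. Their differences were 0.57 and 0.46, or 0.31 and 0.20 relative to the median of all kept genes. Without the GC trend, whose removal also takes out the shift of all genes, they were 0.16 and 0.12.

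IACS-9571 at 24 h stood close to DMSO. Past 2-fold were 0 of 34 members, beside 0.172% of all kept genes, and the median was 0.03 against -0.02 over all genes. Above DMSO lay 20 members, where 42.6% of all kept genes did. TRIM52, a short RING protein chosen after its values were seen, was highest, at 1.60 FPKM with IACS-9571 against 0.947 FPKM in DMSO at 24 h, a difference of 0.42. It had 1.85 FPKM with dTRIM24 at 24 h and 1.38 to 1.44 FPKM in the 4 h groups, so DMSO at 24 h was its low group. Among members with at least 5 FPKM, IACS-9571 stood furthest from DMSO at 24 h for TRIM34 (-0.20), TRIM21 (0.17) and TRIM9 (0.15). TRIM9, a ligase of axon guidance, had 5.88 FPKM with dTRIM24, 5.11 FPKM with IACS-9571 and 4.52 FPKM in DMSO at 24 h, and 5.54 FPKM, 5.30 FPKM and 5.70 FPKM in that order at 4 h.

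Against IACS-9571 at 24 h, dTRIM24 gave again 34 of 34 members above 0, beside 98.4% of all kept genes. Past 2-fold were 0, beside 0.217% of all genes, and past 1.5-fold 2, beside 3.21%. The median was 0.28 for the members and 0.28 for all kept genes, and with median centring 14 members lay above and 20 below IACS-9571. TRIM72 stood at 0.74, TRIM56 at 0.61 and TRIM8, a RING protein that binds SOCS1, at 0.51. TRIM8 had 16.6 FPKM with dTRIM24, 11.4 FPKM with IACS-9571 and 12.02 FPKM in DMSO at 24 h, and 14.5 FPKM, 15.5 FPKM and 16.1 FPKM in that order at 4 h. Relative to the median of all genes TRIM72 stood at 0.46 and TRIM56 at 0.33.

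Over time the family differed in the same direction as the bulk of genes. In DMSO 34 of 34 members were lower at 24 h than at 4 h, beside 95.0% of all kept genes, with a median of -0.25 against -0.22. With IACS-9571 32 of 34 were lower at 24 h, beside 97.0%, with a median of -0.28 against -0.26. The exceptions were TRIM52 and TRIM23. With median centring 18 members lay above and 16 below 4 h in DMSO, and 16 above and 18 below with IACS-9571. With dTRIM24 24 members were higher at 24 h, beside 61.4% of all genes, with a median of 0.09 against 0.05. With median centring 20 members were higher at 24 h with dTRIM24 and 14 lower. Past 2-fold were 0 of 34 in each of these, beside 0.217% of all genes in DMSO, 0.443% with IACS-9571 and 0.669% with dTRIM24. Past 1.5-fold was TRIM11 with IACS-9571 (-0.62), 1 of 34 beside 2.50% of all genes. The lowest of the 6 means was DMSO at 24 h for 20 members and IACS-9571 at 24 h for 14, and over all kept genes these groups were lowest for 40.5% and 55.4%. The summed level of the kept members was 397 FPKM with dTRIM24, 318 FPKM with IACS-9571 and 316 FPKM in DMSO at 24 h, and 381 FPKM, 392 FPKM and 396 FPKM in that order at 4 h.

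**Figure D2:**
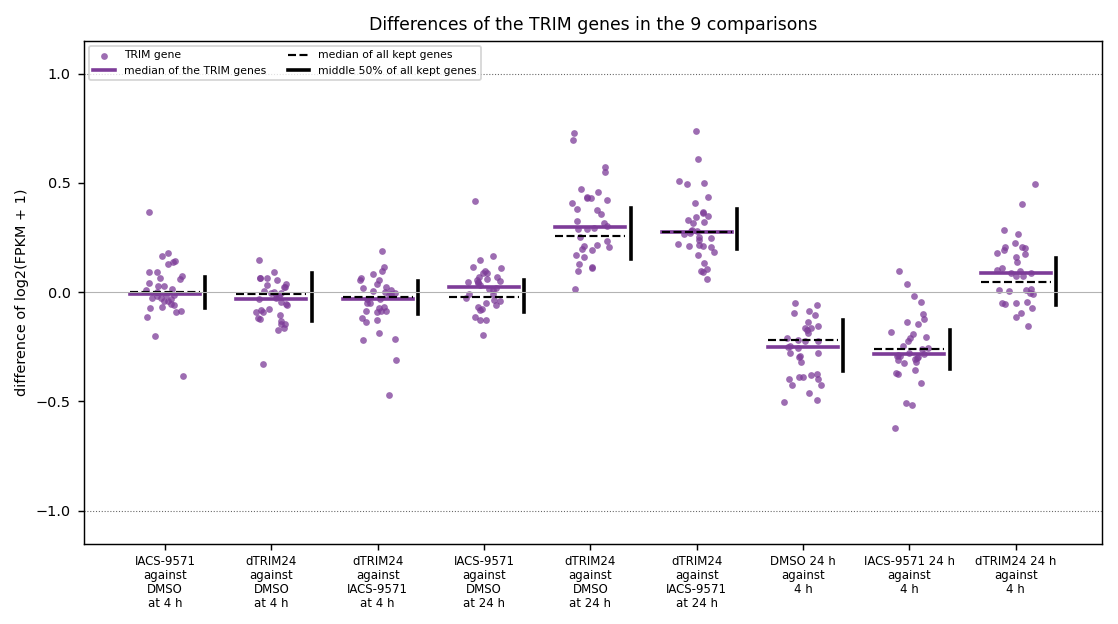
Differences of log2(FPKM + 1) in the 9 comparisons, each named with the group on top first; points are the 34 kept TRIM genes (spread sideways at random), thick purple lines their median, dashed lines the median of all 11054 kept genes, black bars the middle 50% of all kept genes and dotted lines the 2-fold bounds. The medians of the family and of all genes lie close in each comparison, and no point reaches a 2-fold bound.

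Differences of dTRIM24 from DMSO ran with the GC content of the transcript, within the family and over all genes. Transcript GC content, taken from an annotation of another build than the authors', ranged from 34.4% for TRIM59 to 62.6% for TRIM46 with a median of 51.0% over the 34 members, against 48.4% over all kept genes. Across the 34 members Spearman's rho between GC content and the difference of dTRIM24 from DMSO was -0.68 at 4 h and 0.75 at 24 h. Over all kept genes with a GC value it was -0.73 and 0.61. For IACS-9571 against DMSO it was -0.15 at 4 h and 0.32 at 24 h across the members, and -0.39 and 0.17 over all genes. These are correlations across genes of the same group means, not across replicates. At 24 h the 17 members with the higher GC content had a median difference of 0.42 from DMSO with dTRIM24, and the 17 with the lower GC content 0.21. At 4 h the medians of the same sets were -0.09 and 0.02. For DMSO at 24 h against 4 h they were -0.37 and -0.21, with a rho of -0.78. With the trend taken out the median of the members with dTRIM24 at 24 h was 0.02, and TRIM72, TRIM56 and TRIM52 (0.35) stood highest. Removal of the trend also takes out the shift of all kept genes, whose median went from 0.26 to -0.005.

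**Figure D3:**
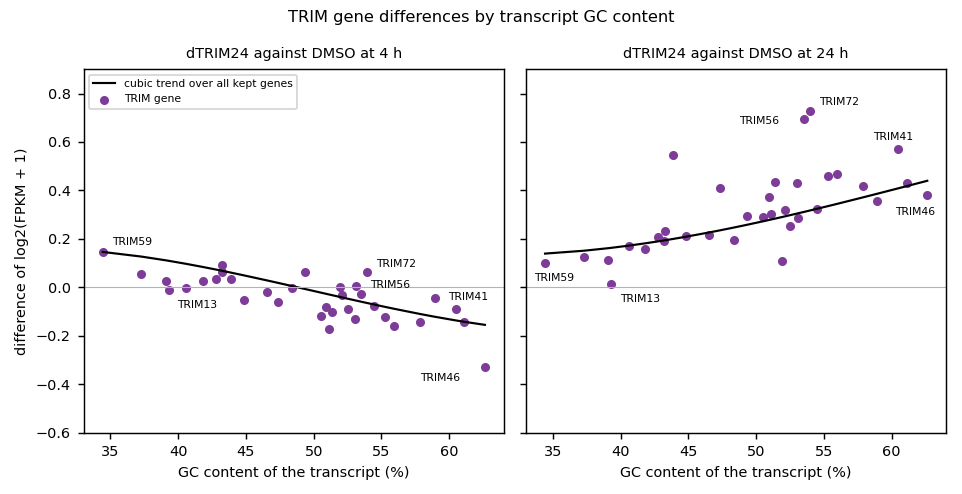
Difference of log2(FPKM + 1) of dTRIM24 from DMSO against the GC content of the transcript (percent) for the 34 kept TRIM genes, at 4 h on the left and 24 h on the right; the line is the cubic trend fitted over all kept genes with a GC value. Points fall with GC content at 4 h and climb with it at 24 h, and TRIM72 (0.73) and TRIM56 (0.70) lie above the trend at 24 h.

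Interferon-inducible members were examined as a list, since TRIM proteins of this kind act in antiviral defence. Of the 10 listed genes 9 were kept, and TRIM69 stayed between 0.101 FPKM and 0.166 FPKM. Interferon acts on such genes through the ISRE, an element of 2 GAAA repeats spaced by a pair of bases. Its core (GAAA, any 2 bases, GAAA) was searched on both strands in RefSeq promoter windows (GRCh38.p14, 250 bases before to 50 after a gene's start), and a gene counted where any of its windows held it. A window was matched by symbol for 54 of the 72 members, 26 of the 34 kept and 9 of the 10 listed. The core was found for 6 of these 9, and for 2 of 18 other kept members with a window. Over all 27305 genes with a window the share was 4.38%. The stretches below are shown because they hold the element, in capitals; those of TRIM5, TRIM14, TRIM26, TRIM34 and TRIM69 read it on the opposite strand. A match is no evidence of use, and no match says only that these letters were not in the window.
TRIM5 (chr11:5685075-5685134, minus strand): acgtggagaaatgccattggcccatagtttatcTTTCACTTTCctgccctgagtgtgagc
TRIM14 (chr9:98119223-98119282, minus strand): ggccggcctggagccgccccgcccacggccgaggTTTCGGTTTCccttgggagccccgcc
TRIM21 (chr11:4393663-4393692, minus strand): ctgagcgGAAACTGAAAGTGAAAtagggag
TRIM26 (chr6:30213563-30213622, minus strand): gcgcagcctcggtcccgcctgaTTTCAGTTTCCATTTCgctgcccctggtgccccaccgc
TRIM34 (chr11:5624886-5624945, plus strand): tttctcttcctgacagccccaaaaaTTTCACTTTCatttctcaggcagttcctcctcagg
TRIM69 (chr15:44736441-44736500, plus strand): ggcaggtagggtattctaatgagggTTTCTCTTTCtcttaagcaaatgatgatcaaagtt

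The first bases of the element lay 27 bases before the start in TRIM5, 26 in TRIM14, 90 in TRIM34 and 62 in TRIM69. TRIM26 and TRIM21 held 2 overlapping matches each, 194 and 188 bases before the start in TRIM26 and 17 and 23 bases after it in TRIM21. The other kept members with the core were TRIM16 and TRIM44. Other letters searched in the same windows were TTCCNGGAA, found for 1 of 26 kept members with a window and 1.44% of all genes, and CCGGAAG, found for 4 of 26 and 12.2%. The NF-kB consensus was found for 0 of 26 and 0.227% of all genes. The ISRE core was in 7 of the 26.

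The 9 kept members of this list followed the family. Past 2-fold were 0 of 9 in each of the 9 comparisons, beside 0.172% to 0.688% of all kept genes. Their median difference from DMSO was -0.03 with dTRIM24 and -0.04 with IACS-9571 at 4 h, and 0.29 with dTRIM24 and -0.04 with IACS-9571 at 24 h, where all kept genes had -0.01, 0.00, 0.26 and -0.02. After removal of the GC trend the median with dTRIM24 at 24 h was 0.00.

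TRIM21, a cytosolic receptor for antibody on viruses, had 19.9 FPKM with dTRIM24, 17.1 FPKM with IACS-9571 and 15.1 FPKM in DMSO at 24 h, and 18.8 FPKM, 18.99 FPKM and 19.97 FPKM in that order at 4 h. TRIM26, which acts in the control of interferon signalling, had 16.96 FPKM, 12.3 FPKM and 11.97 FPKM at 24 h, and 14.6 FPKM, 15.5 FPKM and 16.4 FPKM at 4 h, in the same order. TRIM14, an adaptor of the mitochondrial signalling protein MAVS without a RING finger, had 13.3 FPKM, 10.5 FPKM and 10.7 FPKM at 24 h, and 12.4 FPKM, 11.5 FPKM and 12.3 FPKM at 4 h. In TRIM21, DMSO at 24 h was alone at the low end, while in TRIM26 and TRIM14 IACS-9571 at 24 h was about as low. TRIM14 shares 422 exon bases with NANS on the other strand (39.1 to 49.4 FPKM), which makes its level uncertain.

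TRIM5, TRIM6, TRIM22 and TRIM34 are neighbours on chromosome 11 and differed in level. TRIM22, an antiviral factor, had 20.3 FPKM with dTRIM24, 16.4 FPKM with IACS-9571 and 18.03 FPKM in DMSO at 24 h, and 21.4 FPKM, 20.4 FPKM and 20.99 FPKM in that order at 4 h. TRIM5, which binds retroviral capsids, had 11.7 FPKM, 9.66 FPKM and 10.1 FPKM at 24 h, and 11.7 FPKM, 11.7 FPKM and 10.9 FPKM at 4 h, in the same order. TRIM34 had 6.56 FPKM, 4.70 FPKM and 5.53 FPKM at 24 h, and 6.01 FPKM, 7.15 FPKM and 6.28 FPKM at 4 h. These values do not overlap between the 3 genes, and IACS-9571 at 24 h was the low group of each. TRIM6 stayed between 0.0914 FPKM and 0.105 FPKM. The read-through row TRIM6-TRIM34, with which TRIM34 shares 83.0% of its exon bases, was at 0.119 FPKM or less.

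TRIM38, which dampens antiviral and inflammatory signalling, varied little, with 4.55 FPKM with dTRIM24, 3.76 FPKM with IACS-9571 and 3.93 FPKM in DMSO at 24 h, and 4.21 FPKM, 4.22 FPKM and 4.23 FPKM in that order at 4 h. TRIM25 and TRIM56, given above, complete the list.

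**Figure D4:**
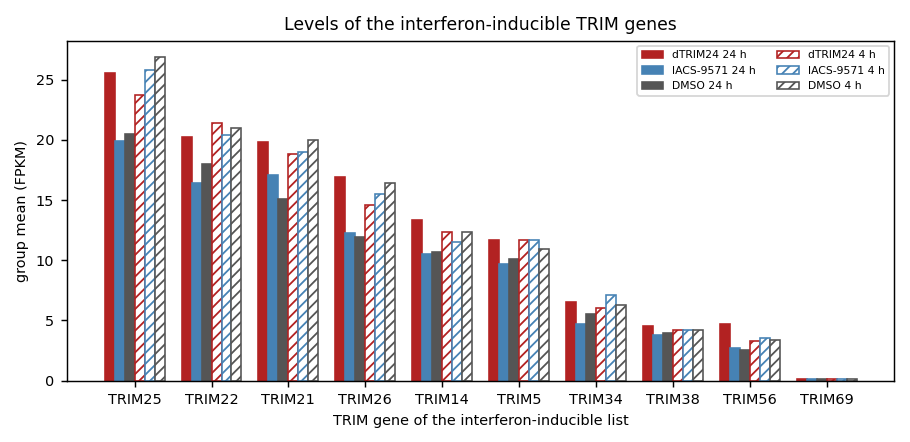
Group means (FPKM, linear axis from 0) of the 10 TRIM genes of the interferon-inducible list, ordered by mean; solid bars are the 24 h groups and hatched bars the 4 h groups, in the order dTRIM24, IACS-9571 and DMSO within a time. TRIM25 reaches 26.9 FPKM and TRIM69 stays near 0.1 FPKM, and solid blue and grey bars are shorter than the rest for most genes.

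The other PRY-SPRY members kept were of middle or low level. TRIM4, a ligase of RIG-I, lay between 6.76 FPKM and 9.24 FPKM, TRIM35 between 5.01 FPKM and 6.86 FPKM, and TRIM39 between 2.79 FPKM and 3.64 FPKM. TRIM68, a coactivator of the androgen receptor, lay between 2.53 FPKM and 3.35 FPKM, TRIM58, known from red cell maturation, between 1.23 FPKM and 1.85 FPKM, and TRIM62 between 0.808 FPKM and 1.33 FPKM. The read-through row TRIM39-RPP21, which shares 29.5% of the exon bases of TRIM39, had 0.179 to 0.916 FPKM. Over all 20 kept members of this class the median difference of dTRIM24 from DMSO was -0.07 at 4 h, with 14 below, and 0.30 at 24 h. Over all kept genes the medians were -0.01 and 0.26, with 52.2% below DMSO at 4 h. After removal of the GC trend the median of the class was -0.04 at 4 h and 0.01 at 24 h.

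Members of other classes had few representatives. Of the 8 listed genes with a COS or FN3 domain, proteins that bind microtubules, TRIM9, TRIM46 and TRIM36 were kept, and TRIM36 lay between 1.62 FPKM and 2.11 FPKM. The muscle genes TRIM54, TRIM55 and TRIM63 of this class were at most at 0.140 FPKM, the highest value of TRIM63. Of the NHL class TRIM32, mutated in a muscular dystrophy, lay between 3.94 FPKM and 5.16 FPKM, and TRIM71, a stem cell factor repressed by let-7, between 1.1998 FPKM and 1.92 FPKM, while TRIM2 reached 0.306 FPKM and TRIM3 0.280 FPKM at most. TRIM37, the MATH class, is a centrosome protein and lay between 5.06 FPKM and 6.43 FPKM. It shares 284 exon bases with PPM1E on the other strand.

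Genes that work with the family were taken as lists too, and those given with their group values (PML, UBE2D3, ISG15 and IRF7) were picked from the lists after their values were seen. Of family genes known by other names, PML (TRIM19), the organiser of nuclear bodies, had 12.7 FPKM with dTRIM24, 9.15 FPKM with IACS-9571 and 8.65 FPKM in DMSO at 24 h, and 11.5 FPKM, 12.8 FPKM and 12.6 FPKM in that order at 4 h. MEFV (TRIM20), the pyrin of inflammasomes, lay between 1.16 FPKM and 1.51 FPKM, and MID1, MID2, TRIML1 and TRIML2 were under 1 FPKM. PML and MEFV lay 0.51 and 0.19 above DMSO with dTRIM24 at 24 h on the log2(FPKM + 1) scale, where the median of all kept genes was 0.26. Their median was 0.35, and -0.01 after removal of the GC trend. Of the 11 ubiquitin-conjugating enzymes (E2) that serve RING ligases, 11 were kept. Past 2-fold were 0 in any of the 9 comparisons, beside 0.172% to 0.688% of all kept genes. UBE2D3 was the highest of them, at 186 FPKM with dTRIM24, 158 FPKM with IACS-9571 and 178 FPKM in DMSO at 24 h. At 4 h UBE2D3 had 207 FPKM, 196 FPKM and 197 FPKM in that order. The median difference of the 11 enzymes from DMSO was 0.09 with dTRIM24 at 24 h, against 0.26 over all kept genes, and -0.08 after removal of the GC trend. With dTRIM24 at 4 h 10 of 11 lay above DMSO, beside 47.8% of all genes, and their median was 0.08, or 0.01 after removal of the GC trend.

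Of 17 genes of RNA and DNA sensing and interferon response, 14 were kept. Past 2-fold were 0 in any of the 9 comparisons, beside 0.172% to 0.688% of all kept genes. Their median difference from DMSO was -0.01 with dTRIM24 and 0.02 with IACS-9571 at 4 h, and 0.23 with dTRIM24 and -0.02 with IACS-9571 at 24 h, where all kept genes had -0.01, 0.00, 0.26 and -0.02. After removal of the GC trend it was -0.03 with dTRIM24 at 24 h. ISG15, a ubiquitin-like protein induced by interferon, had 13.2 FPKM with dTRIM24, 8.74 FPKM with IACS-9571 and 10.1 FPKM in DMSO at 24 h, and 11.04 FPKM, 12.4 FPKM and 14.4 FPKM in that order at 4 h. IFIT1, IFIT2 and MX1, strongly inducible by interferon, stayed under 1 FPKM in all groups. IRF7, an interferon regulatory factor, had 5.30 FPKM with dTRIM24, 2.67 FPKM with IACS-9571 and 3.37 FPKM in DMSO at 24 h, and had 4.43 FPKM, 5.34 FPKM and 5.17 FPKM in that order at 4 h.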

How the data were processed

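RNA of 18 samples was sequenced, and the deposited file gives 1 FPKM value per gene and group, the mean that the authors formed. The columns share no common total, with sums between 771830 FPKM (IACS-9571 at 24 h) and 1058350 FPKM (DMSO at 4 h). The median of the spike-ins used lay between 29.7 FPKM and 31.7 FPKM. The submitters' processing notes name TopHat2, Cuffnorm and hg19. Their versions, the annotation and the use of strand are in no source used here. Titles and time points gave the groups, although the labels' treatment protocol has 24 h throughout, and no label says whether the 3 samples of a group were separate cultures. Rows of spike-ins and 1707 small RNA rows were left out, and genes with a highest group mean of at least 1 FPKM were kept. Differences are of log2(FPKM + 1) between means, which understates low genes, with a threshold of 1. Means allow no test, and the depth is unknown. Genes named with full values were the 5 highest members, the 3 members of at least 5 FPKM with the largest differences in each comparison of compounds, the interferon list and TRIM66. Other genes are given by range or differences, or are marked as chosen after their values were seen. Members and lists were chosen with earlier results of these data known. GC content of the longest transcript (GENCODE, GRCh38, by symbol) was found for 34 kept members and 10243 kept genes (92.7%), and exon overlaps come from the same annotation. The steps were tested on simulated data. Alternatives were pseudocounts of 0.1 and 0.5, no filter, floors of 0.5 and 5 FPKM, median centring, quantile normalization, a spike-in rescaling, a 1.5-fold threshold and removal of a cubic GC trend. Python 3.11.15, numpy 2.4.6, pandas 2.3.3 and matplotlib 3.10.9 were used.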

Additional observations from a re-analysis of the deposited data

How the results depend on the processing

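No paired analysis was possible because the table holds 1 mean per group, and for the same reason leaving out replicates was not run. Of the 72 genes 22 reached a floor of 5 FPKM, and 37 a floor of 0.5 FPKM. Members past 2-fold stayed at 0 in the 9 comparisons under the alternatives, with these exceptions: with a pseudocount of 0.1 there was 1 (TRIM72) with dTRIM24 against DMSO and 1 (TRIM72) against IACS-9571 at 24 h, and with a 1.5-fold threshold there were 2 with dTRIM24 against DMSO at 24 h, 2 against IACS-9571 at 24 h and 1 (TRIM11) with IACS-9571 at 24 h against 4 h. The median difference of dTRIM24 from DMSO at 24 h was 0.078 with no filter, 0.010 with median centring, 0.020 with quantile normalization and 0.016 with the GC trend taken out. Against IACS-9571 at 24 h it was 0.095, -0.026, -0.0052 and -0.00013 in the same order of settings. For DMSO at 24 h against 4 h it was -0.0021, 0.016, -0.032 and -0.024, and for IACS-9571 at 24 h against 4 h -0.016, -0.0045, -0.015 and -0.0093. With no filter the median covers 72 genes, of which 38 lie under 1 FPKM. Centring, quantile normalization and removal of the GC trend, whose fit holds a constant, take out the shift of all genes by construction. Of 900 values of 19 named genes under alternatives, 114 moved by more than the spike-in SD, 38 with median centring, 38 with quantile normalization, 36 with the GC trend taken out and 2 with a pseudocount of 0.1. The 19 leave out TRIM72, TRIM46 and TRIM52. With a pseudocount of 0.1 the 24 h differences of TRIM72 with dTRIM24 went from 0.73 to 1.07 against DMSO and from 0.74 to 1.08 against IACS-9571. The lack of replicate values and of depth limits every statement, and a cause of the GC trend was not tested.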
